A study of Mus musculus with 18 samples.

Results

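The 8 genes described here are the aryl hydrocarbon receptor Ahr, its repressor Ahrr, 4 genes that the receptor is known to switch on (Cyp1a1, Cyp1b1, Tiparp and Nqo1), and 2 further cytochrome P450 genes, Cyp4b1 and Cyp2e1. They were chosen by name. Each is read through every probe set that the platform annotation assigns to that 1 symbol alone, which gives 13 probe sets for 8 genes, of 34945 such probe sets for 18193 genes. RNA of the left ventricle of female wild-type C57Bl/6 mice, 3 to 4 months old, was hybridised to Affymetrix arrays, to compare cardiac hypertrophy in pregnancy with that in voluntary exercise. Hypertrophied hearts came from 7EX and 21EX (7 or 21 days with a running wheel), MP (mid-pregnancy, day 11), LP (late pregnancy, days 18 to 19) and 0PP (within 12 hours of giving birth), and NP/Sed, sedentary virgin females in diestrus, is the control that 5 comparisons share. Every group has 3 arrays. RNA of 2 to 3 hearts was mixed in equal parts for an array, and the tests therefore measure the spread between such pools.

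The receptor encoded by Ahr is a ligand-activated transcription factor that waits in the cytoplasm with heat shock protein chaperones. On binding a planar aromatic ligand it enters the nucleus, pairs with ARNT and binds DNA at a short core motif near its target genes. Cyp1a1 and Cyp1b1 hydroxylate polycyclic aromatic compounds, estradiol and arachidonic acid. Ahrr and Tiparp are targets that in turn repress the receptor, and Nqo1, a quinone reductase, also answers to Nrf2. Cyp4b1 and Cyp2e1 are not classical targets of the receptor: Cyp4b1 hydroxylates fatty acids and xenobiotics, and Cyp2e1 oxidizes ethanol, acetone and other small molecules. In bulk tissue, more cells of a type that expresses a gene and more of its RNA per cell cannot be told apart.

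The tissue label was checked first. The cardiomyocyte genes Myl2, a ventricular myosin light chain, and Tnni3, cardiac troponin I, averaged 14.77 and 14.19 on the log2 scale of the robust multi-array average (RMA), in which 1 unit is a doubling. Array medians lay between 4.934 and 5.024 over the 18 arrays. The hepatocyte gene Alb averaged 4.15. The hepatocyte list showed 0 of 6 genes past the test in LP against NP/Sed, which compares groups and does not check the tissue. Of the atrial genes, Nppa, Myl7 and Myl4 averaged 11.47, 9.41 and 9.13, while Sln and Bmp10 averaged 4.67 and 4.68. Myl7 varied within groups, at 8.54, 10.44 and 8.24 in LP and 8.91, 9.75 and 8.10 in NP/Sed. The part of atrial RNA in the pools was not tested.

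The core motif GCGTG was searched on both strands, where the other strand reads CACGC, in the 250 bases before the transcription start in the RefSeq promoters of build GRCm38.p6. Of the 7 members with a promoter in that collection, 4 held at least 1 core and 3 (Cyp4b1, Cyp2e1 and Nqo1) held none in this window. The core stands in 28.2% of all 32851 promoters of this length, so its presence is a description and not a binding site. The 4 promoters that hold a core are shown, with each core in capitals. Nqo1, also a target of the receptor, is not among them. They lie at chr9:57697363-57697612 (+ strand) for Cyp1a1, chr17:79715062-79715311 (- strand) for Cyp1b1, chr13:74292332-74292581 (- strand) for Ahrr and chr3:65528197-65528446 (+ strand) for Tiparp.
Cyp1a1: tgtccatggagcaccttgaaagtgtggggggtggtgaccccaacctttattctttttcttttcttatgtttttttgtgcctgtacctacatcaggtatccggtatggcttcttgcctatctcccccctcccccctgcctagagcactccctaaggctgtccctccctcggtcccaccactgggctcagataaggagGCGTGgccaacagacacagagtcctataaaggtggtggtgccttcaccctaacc
Cyp1b1: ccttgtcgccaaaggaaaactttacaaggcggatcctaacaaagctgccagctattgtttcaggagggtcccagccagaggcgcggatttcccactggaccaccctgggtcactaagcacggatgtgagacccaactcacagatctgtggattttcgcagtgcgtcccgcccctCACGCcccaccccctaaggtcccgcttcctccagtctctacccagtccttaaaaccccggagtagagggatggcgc
Ahrr: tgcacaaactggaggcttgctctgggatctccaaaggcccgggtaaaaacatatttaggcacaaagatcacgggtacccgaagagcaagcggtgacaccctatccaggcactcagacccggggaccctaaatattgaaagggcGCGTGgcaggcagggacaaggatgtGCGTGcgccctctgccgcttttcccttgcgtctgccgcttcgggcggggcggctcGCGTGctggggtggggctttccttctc
Tiparp: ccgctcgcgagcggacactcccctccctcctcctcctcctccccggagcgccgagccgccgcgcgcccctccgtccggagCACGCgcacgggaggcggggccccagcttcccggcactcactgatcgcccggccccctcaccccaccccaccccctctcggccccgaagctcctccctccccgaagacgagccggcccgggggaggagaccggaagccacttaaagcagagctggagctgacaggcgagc

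In Cyp1a1, Cyp1b1 and Tiparp the single core begins at -54, -76 and -170, counted from the start site. Ahrr holds 3 cores, which 2.77% of all promoters do, beginning at -107, -82 and -27. The longer form TNGCGTG, which contains the core and was also searched on the other strand as CACGCNA, was found in Ahrr alone among the 7 and stands in 4.1% of all promoters.

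Transcripts of the receptor and of 3 P450s were higher in late-pregnant hearts, each at 1 probe set. In LP against NP/Sed, 4 of 13 probe sets passed the test, an adjusted p under 0.05 in limma with Benjamini-Hochberg adjustment over 45037 probe sets, and all 4 were higher: Cyp1a1, Cyp1b1, Cyp4b1 and Ahr. Over all probe sets 1.67% passed in that comparison. By gene, counted at any probe set, these are 4 of 8 members higher and 0 lower, beside 2.20% of all genes higher and 0.770% lower. With the probe sets of a gene averaged, Cyp1a1 and Cyp4b1 passed in limma. Cyp1b1, at 0.496, and Ahr, at 0.362, then did not (adjusted p = 0.0728 and 0.0927). Every LP array lay above every NP/Sed array at 8 of the 13, against 7.96% of all probe sets. The median log2 difference over the 13 member probe sets was 0.38. For all genes it was 0.007, but this takes 1 probe set per gene, that of highest mean, so both medians are not the same measure. The study itself names Cyp1a1, Cyp1b1, Cyp2e1 and Cyp4b1 as higher in LP from these same arrays, so their direction here is no independent evidence.

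**Figure D1:**
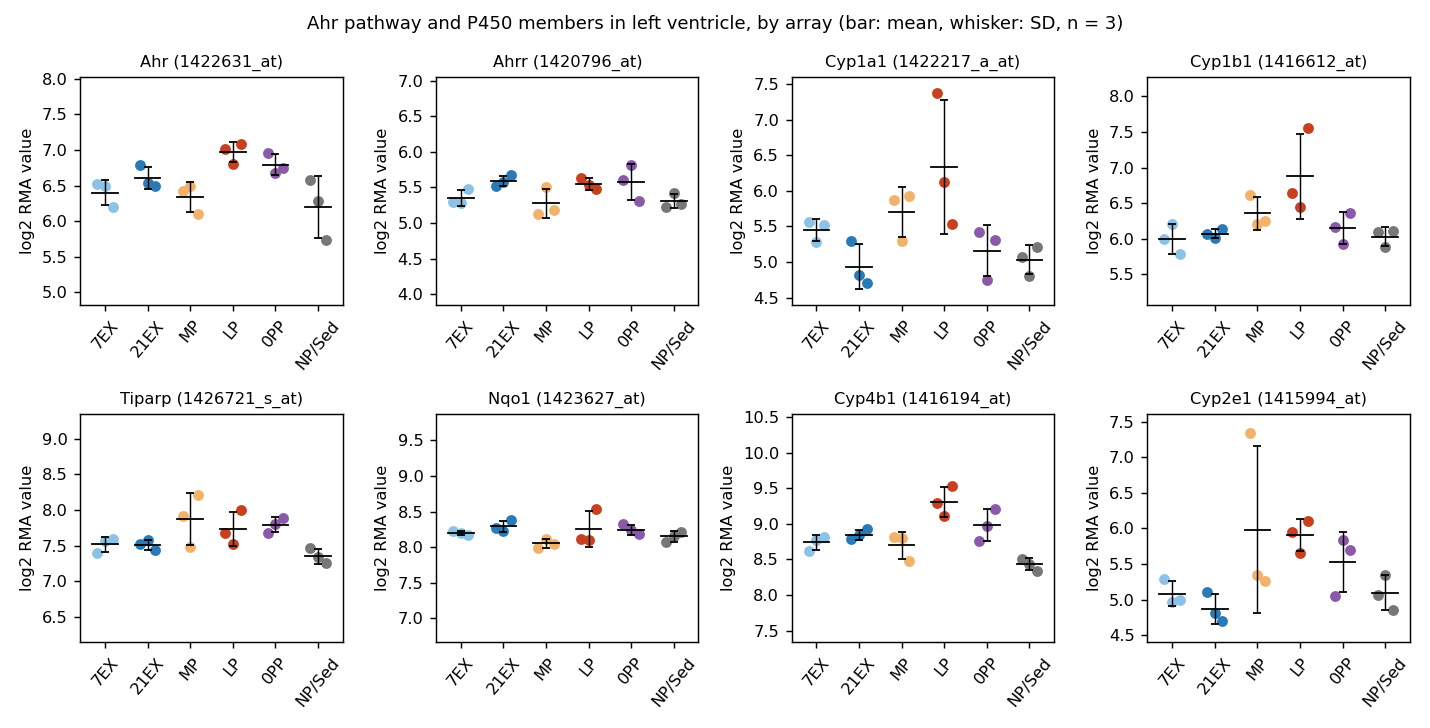
Log2 RMA value of each member (1 probe set per gene, the one of highest mean, every panel spanning the same range) on each array, by group, with the mean and the SD of 3 arrays. LP has the highest mean for Cyp4b1, with arrays at 9.11 to 9.53 that overlap 0PP, and single arrays carry the LP mean of Cyp1a1 (7.37) and the MP mean of Cyp2e1 (7.34).

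Ahr, the receptor, has 2 probe sets that behaved differently. At 1422631_at the log2 values were 7.02, 6.81 and 7.09 in LP, against 6.58, 6.29 and 5.73 in NP/Sed. All LP arrays lay above all NP/Sed arrays, and NP/Sed-3 stood apart as the lowest control. The receptor transcript was 0.77 ± 0.16 higher in LP (log2 difference ± SE, adjusted p = 0.0192), a 1.71-fold difference on the linear scale. This is under the fold limit of 0.807 that the study's methods set, and with that limit, in limma or in Cyber-T, Ahr was not called. Without NP/Sed-3 the difference was 0.54 (adjusted p = 0.102), and without LP-1 or LP-3 it was 0.75 and 0.72 (adjusted p = 0.0803 and 0.0875). The other probe set, 1450695_at, gave 4.88, 4.93 and 4.43 in LP, against 4.69, 4.99 and 4.71 in NP/Sed, with overlapping groups and a difference of -0.05 (adjusted p = 0.921).

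In the other groups Ahr at 1422631_at did not pass the test. In 0PP hearts it had 6.96, 6.68 and 6.75, against the NP/Sed values above, a difference of 0.60 ± 0.16 (adjusted p = 0.0632). The 0PP arrays also lay above all NP/Sed arrays. In 21EX the values were 6.79, 6.54 and 6.50, a difference of 0.41 (adjusted p = 0.174), and the arrays of 21EX, MP and 7EX overlapped the controls.

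Ahrr, the repressor whose promoter holds 3 cores, did not pass in any comparison. It had 5.64, 5.53 and 5.48 in LP, against 5.23, 5.42 and 5.27 in NP/Sed. The LP arrays were all higher by a narrow margin, and the difference of 0.25 ± 0.12 did not pass (adjusted p = 0.36).

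Cyp1a1, the receptor's best known target, spread widely within late pregnancy. Its log2 values were 7.37, 6.12 and 5.53 in LP-1, LP-2 and LP-3, against 5.07, 4.81 and 5.21 in the NP/Sed arrays. All 3 LP arrays lay above the controls, but LP-1 exceeded LP-3 by more than the whole distance of LP-3 from the controls. The mean was 1.31 ± 0.31 higher in LP (adjusted p = 0.0373), or 2.48-fold on the linear scale.

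The size and the call of the Cyp1a1 difference depend on single arrays. Without LP-1 it was 0.80 (adjusted p = 0.144), and without LP-3, the lowest, it was 1.72 (adjusted p = 0.00843). Leaving out NP/Sed-1, NP/Sed-2 or NP/Sed-3 gave 1.33, 1.20 and 1.40 (adjusted p = 0.0617, 0.139 and 0.0892). In MP the values were 5.87, 5.30 and 5.93, all above those of NP/Sed, with a difference of 0.67 that did not pass (adjusted p = 0.335).

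After birth Cyp1a1 lay near the controls. It had 5.42, 4.75 and 5.31 in 0PP, a difference of 0.13 from NP/Sed (adjusted p = 0.875). Set against LP, 0PP was lower by 1.18 ± 0.31 on the log2 scale, with every 0PP array below every LP array, and this did not pass the test (adjusted p = 0.0921). The exercise groups gave 5.56, 5.28 and 5.52 in 7EX and 5.29, 4.82 and 4.70 in 21EX.

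Cyp1b1, the second dioxin-inducible P450, has 3 probe sets. At 1416612_at the values were 6.64, 6.44 and 7.56 in LP, against 6.10, 5.88 and 6.11 in NP/Sed. Here LP-3 stood apart upwards, the array on which Cyp1a1 was lowest of the 3. Cyp1b1 was 0.85 ± 0.20 higher in LP (adjusted p = 0.0373), or 1.81-fold on the linear scale.

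Without LP-3 the Cyp1b1 difference was 0.51 (adjusted p = 0.121), and without LP-1 it was 0.97 (adjusted p = 0.0516). It did not pass either without NP/Sed-1, NP/Sed-2 or NP/Sed-3 (adjusted p = 0.0546, 0.14 and 0.101). The dimmer probe set 1416613_at had 3.64, 3.54 and 4.37 in LP, against 3.37, 3.09 and 3.41 in NP/Sed. The LP arrays again lay above the controls with LP-3 highest, and the difference of 0.55 ± 0.15 did not pass (adjusted p = 0.0809). At 1432081_at the groups overlapped and the difference was 0.08 (adjusted p = 0.858).

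In MP, Cyp1b1 at 1416612_at had 6.62, 6.20 and 6.25, and in 0PP it had 6.17, 5.92 and 6.36. All MP arrays lay above the controls and the 0PP arrays overlapped them, and neither passed the test (adjusted p = 0.514 in MP and 0.814 in 0PP). In 7EX (6.00, 6.20 and 5.78) and 21EX (6.07, 6.01 and 6.13) the values overlapped those of NP/Sed.

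**Figure D2:**
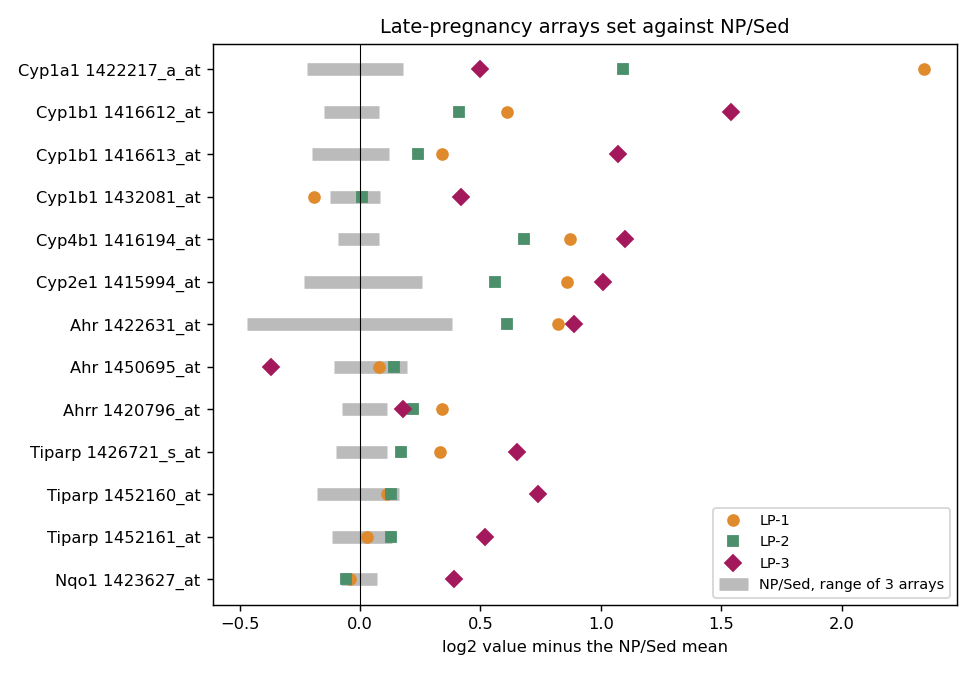
Log2 value of each LP array minus the NP/Sed mean at all 13 probe sets, with the range of the 3 NP/Sed arrays in grey. LP-1 is highest for Cyp1a1 and LP-3 for Cyp1b1, while the 3 LP arrays lie close together for Cyp4b1.

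The plot of LP arrays shows that Cyp1a1 and Cyp1b1 differ in which LP array is highest. LP-3 was the highest LP array at 10 of the 13 probe sets (76.9%), LP-1 at 2 (Cyp1a1 and Ahrr) and LP-2 at 1. Over all 45037 probe sets LP-3 was highest at 34.3%, and over the 536 that were higher in LP and passed the test, at 53.2%. The lowest of the 3 was LP-2 at 7 of the 13 member probe sets, and at 61.2% of those 536.

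Tiparp, a mono-ADP-ribosyltransferase that modifies and restrains the receptor, was read by 3 probe sets. At 1426721_s_at it had 7.92, 7.48 and 8.21 in MP and 7.68, 7.52 and 8.0 in LP, against 7.46, 7.34 and 7.25 in NP/Sed. Both pregnant groups lay above all controls, by 0.52 ± 0.14 in MP (adjusted p = 0.0816) and 0.38 ± 0.14 in LP (adjusted p = 0.222), and neither passed. Without MP-2, the lowest MP array, the MP difference was 0.72 and passed (adjusted p = 0.0144).

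At 1452160_at Tiparp had 7.40, 6.95 and 7.49 in MP, against 6.80, 6.95 and 6.61 in NP/Sed, a difference of 0.50 (adjusted p = 0.138). At 1452161_at MP and NP/Sed overlapped with a difference of -0.01 (adjusted p = 0.99). In LP these probe sets differed from NP/Sed by 0.33 and 0.22, with overlapping arrays (adjusted p = 0.38 and 0.649). In 21EX, 1452160_at had 6.45, 6.50 and 6.31, all below the controls (difference -0.36, adjusted p = 0.219). At 1452161_at the 21EX values of 5.83, 5.74 and 6.03 were again all below the NP/Sed values of 6.49, 6.34 and 6.24. Neither passed the test against NP/Sed.

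Nqo1, the quinone reductase with no core in its promoter window, did not pass in any comparison. It had 8.11, 8.10 and 8.54 in LP, against 8.07, 8.16 and 8.22 in NP/Sed, with LP-3 alone above the controls. The difference was 0.10 ± 0.10 (adjusted p = 0.732).

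Cyp4b1, the fatty acid hydroxylase, was higher on all 3 LP arrays. Its values were 9.29, 9.11 and 9.53 in LP, against 8.51, 8.44 and 8.34 in NP/Sed. The gap between the groups was wider than the range of either. It was 0.88 ± 0.12 higher in LP (adjusted p = 0.00119), or 1.85-fold on the linear scale, and it passed with any 1 of the 18 arrays left out, at differences between 0.77 and 0.99.

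Cyp4b1 was also the member that passed in 0PP, where 1 of 13 probe sets did, beside 1.98% of all probe sets. The 0PP values were 8.76, 8.97 and 9.21, all above NP/Sed, with a difference of 0.55 ± 0.12 (adjusted p = 0.0268). This call was lost without NP/Sed-2 or NP/Sed-3 (adjusted p = 0.0707 and 0.111) and without 0PP-2 or 0PP-3 (adjusted p = 0.0921 and 0.105). In 21EX it had 8.78, 8.84 and 8.92, above all controls, a difference of 0.42 that did not pass (adjusted p = 0.0643), and 7EX (8.62, 8.77 and 8.82) lay above them as well.

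Cyp2e1 was high in late pregnancy and on 1 array of mid-pregnancy. It had 5.95, 5.66 and 6.10 in LP, against 5.07, 5.35 and 4.86 in NP/Sed, all LP arrays above the controls. The difference of 0.81 ± 0.36 did not pass in limma (adjusted p = 0.324). It passed in the Cyber-T test with its fold limit of 0.807. That test takes the spread from the arrays of both compared groups alone, and mostly from probe sets of similar level. In a limma fit of those groups the difference did not pass (adjusted p = 0.0527). In MP the values were 7.34, 5.35 and 5.26, and MP-1 exceeded every other array of the series.

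The MP difference of Cyp2e1 and the LP test depend on MP-1. With it, the MP difference was 0.89 (adjusted p = 0.249), and without it, 0.22 (adjusted p = 0.709). Since all groups share 1 estimate of the spread, leaving out MP-1 also moved the LP result: the difference stayed at 0.81 and passed the test (adjusted p = 0.0251). In 0PP Cyp2e1 had 5.05, 5.84 and 5.70, and no exercise array exceeded 5.29.

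**Figure D3:**
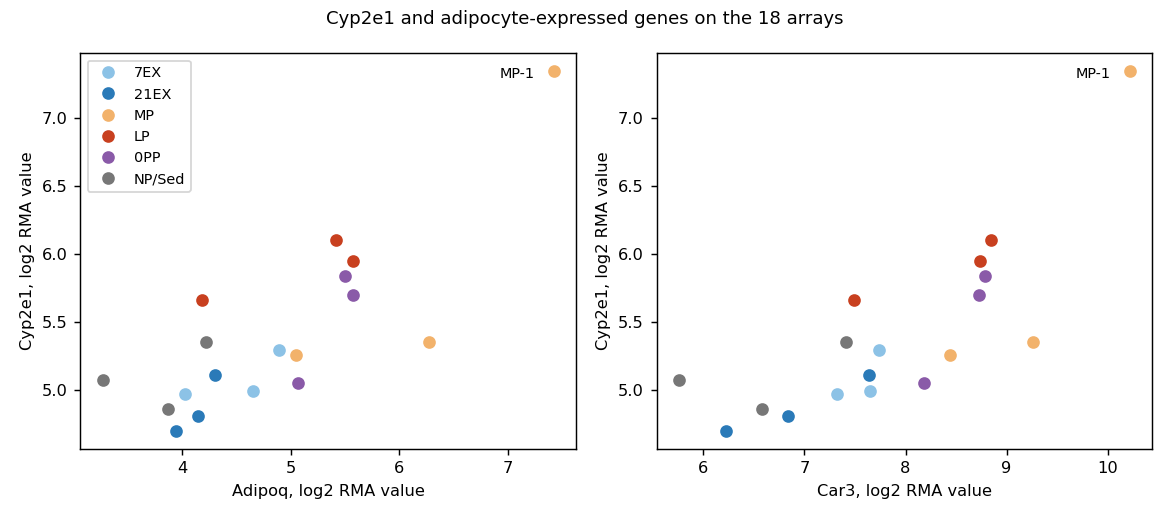
Cyp2e1 against 2 adipocyte-expressed genes, Adipoq and Car3, in log2 RMA values, with 1 point per array coloured by group. MP-1 is at the top right of both panels, at 7.34 for Cyp2e1, 7.42 for Adipoq and 10.22 for Car3 (its probe set of highest mean).

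Car3 and Adipoq, which adipocytes express, were among the genes most like Cyp2e1. The 3 genes most like it over the 18 arrays, by Pearson r among all probe sets of 1 gene, were Car3 (r = 0.86, rho = 0.75), a carbonic anhydrase abundant in fat and muscle, Ceacam2 (r = 0.81, rho = 0.64) and Adipoq (r = 0.81, rho = 0.78), which encodes the fat hormone adiponectin. These are the highest of many correlations, over arrays that share groups, and MP-1 lies at the top end of each. Adipoq had 7.42, 6.27 and 5.05 in MP and 5.57, 4.18 and 5.42 in LP, against 3.27, 4.22 and 3.87 in NP/Sed. MP-2, second highest for Adipoq, was not high for Cyp2e1.

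The adipocyte list as a whole, chosen with earlier results of these data known, had 3 of 7 measured genes higher in LP (Car3, Fabp4 and Lipe). Over all genes 2.20% were higher. Its summed linear level ran between 13753 and 14833 in LP, between 12452 and 14266 in MP, highest on MP-1, and between 11597 and 11806 in NP/Sed. Fabp4, which capillary endothelium also expresses, makes up most of that sum, while Lep and Cidec stayed low, at 3.77 and 3.42 on average. Retn and Lep each differed by -0.04 in LP against NP/Sed (adjusted p = 0.923 and 0.904). On MP-1, where Cyp2e1 was highest, Retn was at its highest too (7.02), while Lipe (7.9) and Fabp4 (13.61) were below all LP arrays. The part of adipocyte RNA in the Cyp2e1 values was not tested.

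Of the other cell type lists, endothelium had 2 of 10 genes higher in LP (Flt1 and Vwf), macrophages 1 of 10 (Cd163), lymphatic endothelium 1 of 4 (Lyve1) and brown adipocytes 1 of 4 (Cidea). Fibroblasts had 1 higher (Dcn) and 2 lower (Col1a1 and Col3a1) of 8. Over all genes 2.20% were higher and 0.770% lower. The cardiomyocyte, pericyte and smooth muscle, hepatocyte, lung, erythroid, atrial and mesothelial lists had 0 genes past the test in that comparison. The summed macrophage level ran between 4670 and 6106 in LP and between 3969 and 4794 in NP/Sed, with overlap. In 7EX, 21EX, MP and 0PP it ran between 5252 and 5973, 5347 and 5899, 5435 and 6199, and 5195 and 5587, all above NP/Sed. The part of these cell types in the P450 values was not tested.

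**Figure D4:**
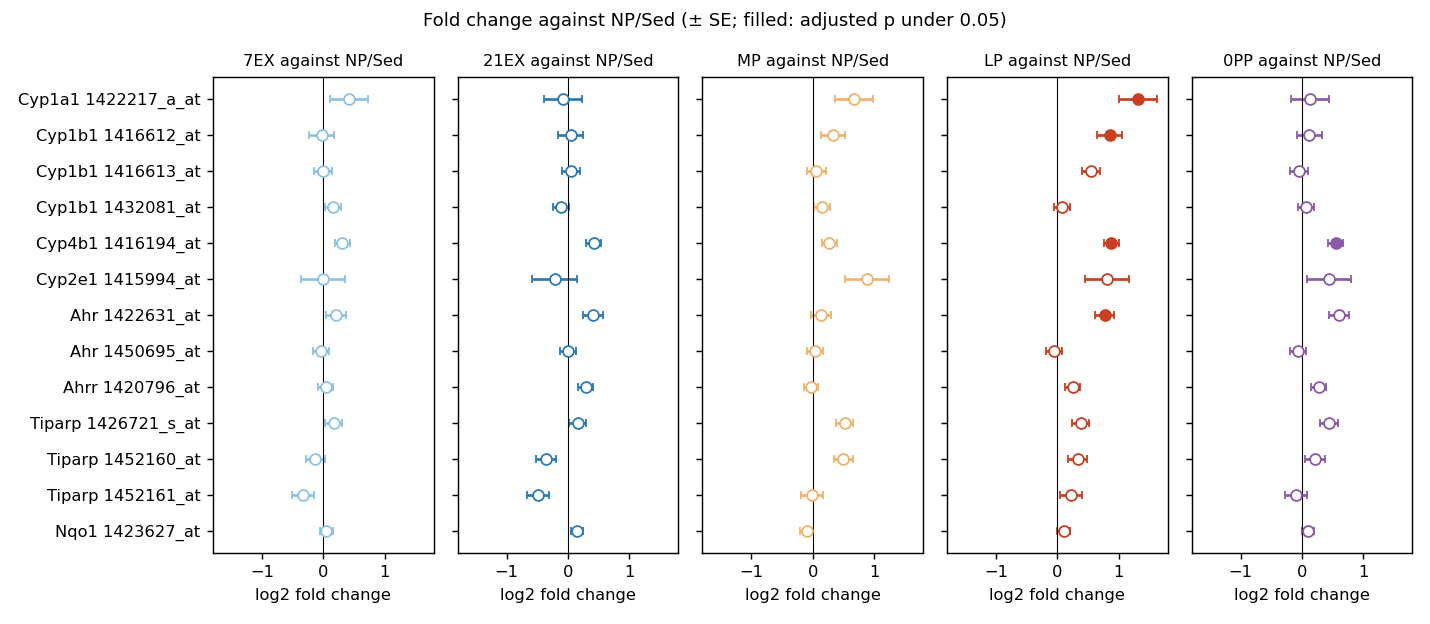
Log2 fold change of all 13 probe sets in each of the 5 groups against the same NP/Sed arrays, with the standard error of the fit, filled where the adjusted p is under 0.05. In LP 4 points are filled, and in 0PP only Cyp4b1, at 0.55.

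In the exercise groups and at mid-pregnancy no member passed. In 7EX 0 of 13 probe sets did, beside 0.659% of all probe sets. In 21EX 0 of 13 did, beside 2.75%, and in MP 0 of 13, beside 1.16%. A Cyber-T test with a fold limit likewise passed 0 members in these 3 comparisons.

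Whether late pregnancy differed from the other states was tested directly. In LP against 21EX 5 of 13 probe sets were higher in LP, beside 3.01% of all probe sets that passed in either direction: Cyp1a1 by 1.40 (adjusted p = 0.0159), Cyp1b1 by 0.82 (adjusted p = 0.0329), Cyp4b1 by 0.47 (adjusted p = 0.0393) and Tiparp by 0.69 at 1452160_at and 0.72 at 1452161_at (adjusted p = 0.0201 and 0.0352). At both these Tiparp probe sets all 21EX arrays lay below the controls as well. At the brightest, 1426721_s_at, LP and 21EX overlapped, with a difference of 0.22 (adjusted p = 0.541). Every one of these 5 calls was lost without some array: Cyp1a1 without 21EX-2 or 21EX-3, Cyp1b1 and both Tiparp probe sets without LP-3 among others, and Cyp4b1 in 8 of the 18 cases with 1 array left out. Cyp4b1 also missed the threshold with a covariate for the 3' minus 5' signal of RNA integrity controls (adjusted p = 0.0522). Against 7EX, 2 of 13 passed, beside 2.99%: Cyp1b1 was 0.89 higher (adjusted p = 0.018) and Cyp4b1 0.57 higher (adjusted p = 0.00974) in LP. Without LP-3 these were 0.55 and 0.46 and did not pass, and without 7EX-1 neither passed. The beta-actin 3' minus 5' signal, a measure of RNA integrity, ran between 1.174 and 1.276 in LP and between 1.049 and 1.095 in 7EX, without overlap. After adjustment for the mean of that signal and its Gapdh counterpart (the 3' minus 5' covariate) the differences were 0.90 and 0.57 and did not pass (adjusted p = 0.0929 and 0.0683). Cyp1b1 also did not pass without 7EX-3.

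The stages around birth were compared in the same way. In LP against MP, 1 of 13 passed, beside 1.40%, namely Cyp4b1, which was 0.61 higher in LP (adjusted p = 0.0127) with no overlap between the groups. It did not pass without MP-3 or LP-3 (adjusted p = 0.0971 and 0.0773), nor with the 3' minus 5' covariate (adjusted p = 0.0779). The beta-actin signal ran between 1.316 and 1.348 in MP, above all LP arrays. In 0PP against LP, 0 of 13 passed, beside 0.884% of all probe sets. Cyp4b1 in 0PP was lower by 0.33, a difference that did not pass (adjusted p = 0.3).

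Likeness between members was read as the correlation of their log2 values over the 18 arrays. Cyp4b1 and Ahr at 1422631_at had a Pearson r of 0.78 (rho = 0.64), Cyp1b1 and Cyp4b1 one of 0.69 (rho = 0.45), while Cyp1a1 and Cyp1b1 had 0.45 (rho = 0.6) and Cyp1a1 and Ahr 0.29 (rho = 0.24). All of these describe arrays that share their group structure. Cyp1b1 at 1416612_at had an r of 0.90 with 1416613_at and of 0.38 with 1432081_at. The other Ahr probe set, 1450695_at, had an r of -0.37 with Cyp4b1, -0.40 with Cyp1b1 at 1416612_at and 0.21 with Cyp1a1. Its r with Ahr at 1422631_at was -0.11.

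Each P450 had its own nearest genes. For Cyp1a1 they were Snhg16 (r = 0.83, rho = 0.65), Ccn1 (r = 0.82, rho = 0.53), an immediate early matricellular gene, and Lin7a (r = 0.82, rho = 0.68). Snhg16 was dim, with means of 3.89 in LP and 3.64 in NP/Sed. Ccn1 had 6.81, 5.17 and 4.55 in LP-1, LP-2 and LP-3, the same order as Cyp1a1. For Cyp1b1 they were the death receptor Fas (r = 0.92, rho = 0.84), Lipe, hormone-sensitive lipase (r = 0.92, rho = 0.76), and Lrg1 (r = 0.91, rho = 0.76), each highest in LP-3. For Cyp4b1 they were Aspscr1 (r = 0.93, rho = 0.9), Calr3 (r = 0.93, rho = 0.88) and Pmm1 (r = 0.92, rho = 0.82). All were picked by their r on these same arrays, so a shared order of the LP arrays is no separate evidence.

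The rest of the receptor's pathway and the Nrf2 targets were counted in LP against NP/Sed. Of the receptor's machinery (ARNT partners, chaperones and coregulators) 9 of 13 listed genes were measured and 0 passed in LP, with a median difference of 0.08. Of 6 measured further genes of its battery 0 passed (median 0.14). Of 16 measured Nrf2 targets 1 was higher (median 0.13), beside 2.20% of all genes. That 1 was Gclm, a subunit of the enzyme that starts glutathione synthesis, with 8.82, 8.69 and 9.05 in LP, against 8.48, 8.21 and 8.20 in NP/Sed (difference 0.56 ± 0.13, adjusted p = 0.0377).

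No further P450 gene on the lists passed in LP against NP/Sed. Of 23 measured P450s of fatty acid and xenobiotic metabolism 0 passed in LP (median 0.02), and of 14 that make steroids or handle cholesterol 0 passed (median 0.02). Of 7 measured electron donors and heme-related genes, Alas1 and Pgrmc2 among them, 0 passed (median 0.10). In LP against 7EX, 1 of the 23 was higher, Cyp2d22, by 0.56 (adjusted p = 0.00211), and in 0PP against LP the same gene was lower at 1 probe set.

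Enzymes that convert or conjugate steroids held 4 of 15 measured genes higher and 0 lower in LP, beside 2.20% and 0.770% of all genes. The median over the list was 0.01. The list was chosen with earlier results of these data known, so the count is a description. Sult1a1, a phenol sulfotransferase that also sulfates estrogens, had 9.66, 9.68 and 10.10 in LP, against 8.96, 8.66 and 8.42 in NP/Sed (difference 1.13 ± 0.17, adjusted p = 0.00179). Hsd17b11, a lipid droplet 17-beta-hydroxysteroid dehydrogenase, had 7.68, 7.56 and 8.46 in LP, against 6.94, 6.86 and 6.96 in NP/Sed (difference 0.98 ± 0.16, adjusted p = 0.00393). Neither gene overlapped between the groups.

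Hsd11b1, which regenerates active glucocorticoid, had 8.42, 8.33 and 9.10 in LP, against 7.86, 7.92 and 7.93 in NP/Sed (difference 0.71 ± 0.14, adjusted p = 0.00947). Hsd17b4, a peroxisomal enzyme, differed by 0.28 (adjusted p = 0.049). Hsd17b11 also fell after birth: in 0PP it was lower than in LP, with log2 differences of -0.85 and -0.89 at its 2 probe sets (adjusted p = 0.000804 and 0.0122).

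Enzymes of arachidonic acid and its epoxides, substrates and products of several P450s, held 3 of 9 measured genes higher and 0 lower in LP. Over all genes 2.20% were higher and 0.770% lower. The median of the list, which was also chosen with earlier results known, was 0.35 in LP. In 0PP against NP/Sed 3 of the 9 were higher as well and 0 lower (Ephx1, Ptgds and Ptgs2), beside 1.98% of all probe sets past the test. The median of the list there was 0.21. Ephx2, soluble epoxide hydrolase, had 11.34, 11.21 and 11.58 in LP, against 11.07, 10.78 and 10.86 in NP/Sed (difference 0.48 ± 0.09, adjusted p = 0.0128). Ephx1, the microsomal hydrolase, differed by 0.52 in LP (adjusted p = 0.0186) and by 0.48 in 0PP (adjusted p = 0.0331), each against NP/Sed. Ptgds, a prostaglandin D2 synthase, was 0.99 higher in LP at the brighter of its 2 probe sets (adjusted p = 0.0158), and it also passed in 7EX, 21EX and 0PP, at 0.91, 0.79 and 0.96 (adjusted p = 0.0464, 0.0458 and 0.0246).

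**Figure D5:**
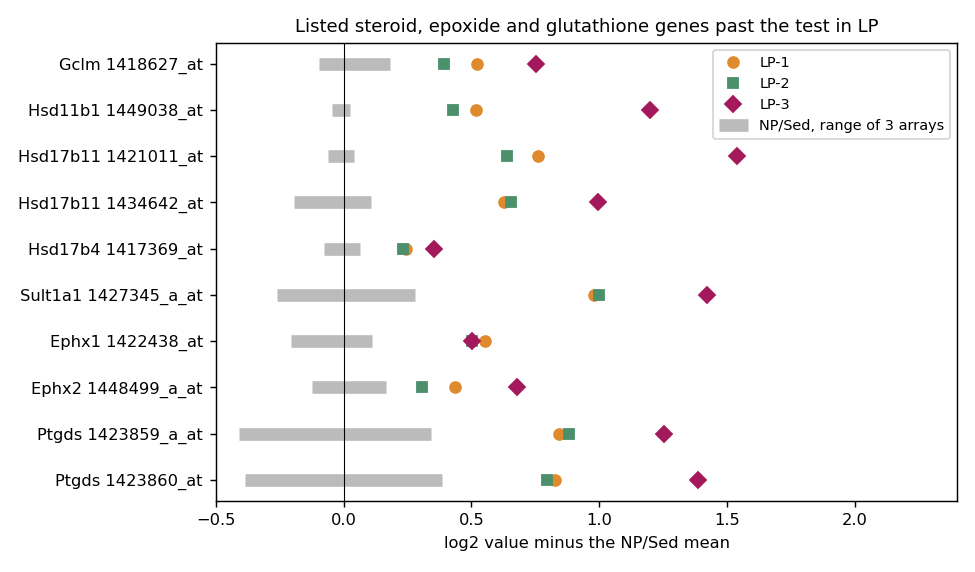
Log2 value of each LP array minus the NP/Sed mean for the listed genes past the test in LP, with the range of the 3 NP/Sed arrays in grey. LP-3 is the highest LP array at 9 of 10 probe sets, as for Cyp1b1.

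In the plot of listed genes LP-3 was highest of the LP arrays at 9 of 10 probe sets, and Ephx1 was the exception. The beta-actin 3' minus 5' signal was 1.263, 1.174 and 1.276 in LP and 1.11, 1.358 and 1.169 in NP/Sed, so LP-3 lay within the range of the controls.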

How the data were processed

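The values are log2 values as deposited, which the authors made with RMA (background-corrected, quantile-normalized, 1 value for each probe set) in R and Bioconductor from all 18 arrays, with 3 arrays in each of 6 groups. Array depth does not apply, and the number of arrays limits the precision. The files name no genome build. Of 45101 probe sets 64 Affymetrix controls were left out and 45037 tested, of which 34945 have 1 gene in the platform annotation and 932 have several.

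Groups were compared with two-sided moderated tests in limma 3.58.1 (R 4.3.3) fitted to all 18 arrays (12 residual and 6.45 prior degrees of freedom), with Benjamini-Hochberg adjustment within a comparison and a threshold of 0.05. No fold limit was used. The authors' own test was Cyber-T with PPDE. The script was tested on simulated data.

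The members, the gene lists and the cell type markers were chosen with earlier results of these data known. The genes named are all members, list genes past the test in LP or with the smallest F-test p, marker genes, and the 3 genes with the highest Pearson r to each of 4 P450s. A listed gene without a probe set of its own is not analysed here. The summed level of a list is the sum of linear values over the probe set of highest mean of each gene.

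Alternatives were a fold limit of 0.807 (75%), a re-implementation of Cyber-T (prior weight 10, PPDE 0.95), a fit restricted to both compared groups, a mean log2 value of at least 5, quantile normalization, median centring, an intensity trend, probe sets averaged by gene, a replicate block, the 3' minus 5' covariate and each array left out.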

Additional observations from a re-analysis of the deposited data

Results flagged for a closer look

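The effect of late pregnancy and that of another state differed, by the test of the difference itself, for 8 probe set comparisons. Against 21EX, LP was higher for Cyp1a1 by 1.40, for Cyp1b1 (1416612_at) by 0.82, for Cyp4b1 by 0.47 and for Tiparp by 0.69 (1452160_at) and 0.72 (1452161_at). Against 7EX it was higher for Cyp1b1 by 0.89 and for Cyp4b1 by 0.57, and against MP for Cyp4b1 by 0.61. All are log2 differences past the adjusted threshold in limma with 3 arrays in each group, and all LP arrays are the same in each. The Cyp4b1 differences from 7EX, 21EX and MP did not pass without LP-3 (0.46, 0.36 and 0.50, adjusted p = 0.0662, 0.196 and 0.0773).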

How the results depend on the processing

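Of 351 recomputed fold changes of the 13 calls, 276 passed again, and none of the 3132 recomputed member values passed with the opposite sign. In LP against NP/Sed the count of 4 became 1 in fits of only the 2 groups and 2 genes, Cyp1a1 and Cyp4b1, with probe sets averaged. The fold limit left 3, without Ahr, and Cyber-T gave 4, with Cyp2e1 in place of Ahr. In 0PP against NP/Sed the count of 1 became 0 with the fold limit, with Cyber-T and with only the 2 groups, and 2 with the level filter, median centring or the intensity trend. In LP against 7EX the count of 2 became 1 with the fold limit or averaged probe sets and 0 with the 3' minus 5' covariate, under which the fold changes stayed near 0.90 and 0.57, and 3 in fits of only the 2 groups, with quantile normalization, median centring or the trend. In LP against 21EX the count of 5 became 2 with the fold limit, 3 with Cyber-T and 2 with only the 2 groups. In LP against MP the count of 1 became 0 with the fold limit, Cyber-T, only the 2 groups or the covariate, and 2 with the level filter or the trend. In 0PP against LP the count of 0 became 1 with the trend, and in 21EX against NP/Sed it became 1 with the level filter or the trend. The cause of these shifts was not tested.

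With 1 array left out, the counts ran between 0 and 0 in 7EX, 0 and 1 in 21EX, 0 and 1 in MP, 1 and 5 in LP and 0 and 2 in 0PP, each against NP/Sed. They ran between 0 and 4 in LP against 7EX, 0 and 6 in LP against 21EX, 0 and 2 in LP against MP and 0 and 2 in 0PP against LP. The LP count fell to 1 without NP/Sed-3 or LP-1.

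Replicate numbers do not pair the arrays: deviations of same-numbered arrays had a mean r of -0.027 over 45 pairs, and others 0.014. The replicate block gave 2 in 0PP against NP/Sed and in LP against MP, 1 in 0PP against LP, 3 in LP against 7EX and 4 in both LP against NP/Sed and LP against 21EX.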
